A study of Mus musculus with 6 samples.

Results

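The Notch pathway was examined through 10 genes of C2C12 cells, a mouse myoblast line which forms multinucleated myotubes when it differentiates. The genes were taken by symbol from a fixed list of receptors (Notch1, Notch2, Notch3), ligands (Dll1, Jag1, Jag2), Hes and Hey response genes (Hes1, Hey1, Heyl) and the differentiation-linked Hes6. All 10 were found among the 55414 gene identifiers of the deposited count table, and all 10 passed the filter on low counts. RNA was sequenced from 3 libraries of cells that received a control siRNA (siControl) and 3 of cells that received an siRNA against Usf2 (siUsf2), an E-box-binding transcription factor. Both groups are labelled wild type in genotype, were grown in medium with fetal bovine serum and were transfected with lipofectamine. The comparison asks how the genes' RNA differs after Usf2 knockdown. The labels do not say how long after transfection RNA was taken, nor whether replicates were separate cultures, so p-values measure the spread between these libraries, which may be technical.

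Notch signalling passes between touching cells. A Delta-like or Jagged ligand on the surface of a cell binds a Notch receptor on its neighbour. Proteases then release the receptor's intracellular part, which joins the DNA-binding protein RBPJ in the nucleus and switches on Hes and Hey genes, themselves transcriptional repressors. In muscle precursors the pathway is known for holding cells undifferentiated, whereas Hes6 is known as an antagonist of Hes1 that favours myogenic differentiation.

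Total counts ranged from 3414565 in siUsf2 3 to 17715250 in siControl 3. Usf2 was at 23.0 to 31.2 CPM (counts scaled to equal library totals) in siControl. It was at 17.1 CPM in siUsf2 1, 15.3 CPM in siUsf2 2 and 30.8 CPM in the library labelled siUsf2 3, the last value lying inside the siControl range. That library also stood apart in depth and in its pseudogene share (0.974% of counts, against 14.0% to 15.3%), and it detected 17404 genes against 23515 to 24501. Its log2(CPM + 1) values correlated with those of the others across genes at r = 0.884 to 0.888, against 0.991 to 0.996 among the other 5. The results below therefore lead with siUsf2 1 and 2 against siControl 1 to 3 (the 5-library comparison), and give the library labelled siUsf2 3 apart and the comparison of all 6 libraries beside it.

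Cell type markers were read in the same libraries. All 6 myoblast markers were measured at a mean of at least 1 CPM, with a summed level between 2539 and 3009 CPM in siControl, 1972 and 2111 CPM in siUsf2 1 and 2, and 2611 CPM in siUsf2 3. Des and Chrna1 held most of that sum. In the 5 libraries Des, Chrna1, Cdh15 and Myod1 fell, Myf5 rose (log2 fold change 0.37, adjusted p = 0.0325 by edgeR) and Pax7 did not pass (-0.03, adjusted p = 0.904). All 7 markers of differentiating muscle cells were measured, with sums between 3908 and 4167 CPM in siControl, of 860.3 and 969.3 CPM in siUsf2 1 and 2, and of 1718 CPM in siUsf2 3. Fibroblast markers, carried by Pdgfra and Cd34, summed to 205 to 227, 257 to 281 and 235 CPM in the same order, and of the 5 tested genes Cd34 alone passed in the 5 libraries (log2 fold change 0.54, adjusted p = 5.2e-05 by edgeR), with Pdgfra at 0.05 (adjusted p = 0.804). The part of these lists in the Notch values was not tested. Mural cell markers, of which Cspg4 held most, summed to 53.2 to 63.3, 57.8 to 58.8 and 63.3 CPM. Cspg4 did not pass (log2 fold change 0.27, adjusted p = 0.106 by edgeR), while Rgs5, another mural marker, fell from a mean of 10.5 to 2.86 CPM (-1.89, adjusted p = 2.9e-06) and was at 1.76 CPM in siUsf2 3. Endothelial markers summed to 1.28 to 2.94, 3.08 to 3.29 and 4.69 CPM, with Tie1 and Cldn5 at 0. No library reached 3 CPM over the immune list (Adgre1 at 0) or 1 CPM over the adipocyte list (Lep at 0) and the epithelial list (Krt5 at 0), and the neuronal and glial list (Sox10 at 0) summed to 2.75 to 5.27 CPM. In bulk RNA, fewer cells of a type and less RNA per cell cannot be told apart.

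Of the 10 genes, the ligand Dll1, the response genes Hes1, Hey1 and Heyl, and Hes6 fell, and the receptors did not pass the test. In the 5-library comparison these 5 of the 10 genes fell, 0 rose and 5 did not pass, by edgeR's quasi-likelihood test at an adjusted p below 0.05 over 17217 genes. Of all genes tested, 6.4% fell and 4.97% rose, and of the 10654 genes at a siControl mean of at least 10 CPM, which all 10 Notch genes reach, 8.62% fell and 6.11% rose. The median log2 fold change of the 10 was -0.33, against -0.01 over all genes tested. In siUsf2 1 and 2 together, 6 of the 10 lay below every siControl library and 2 above, where 19.5% and 21.8% of all genes tested did so. Without siControl 2 the count of Notch genes that fell was 3. With all 6 libraries no Notch gene passed, where 0.042% of all genes fell and 0% rose. There the smallest adjusted p of the 10 was 0.0694, for Heyl, and 4 of the 10 (1753 of 16662 genes) had an unadjusted p below 0.05. DESeq2 on the 6 libraries called Heyl lower (adjusted p = 2.30e-08) and no other of the 10.

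**Figure D1:**
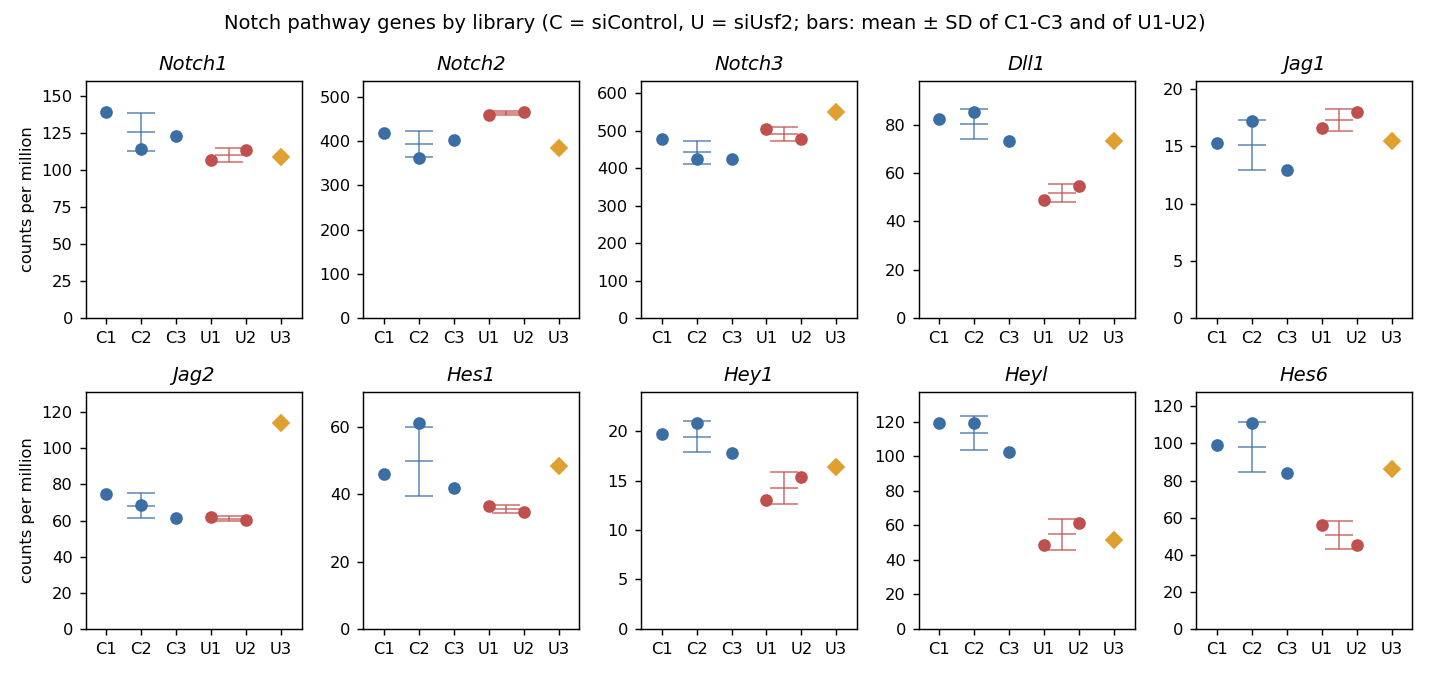
Level in CPM of each of the 10 Notch genes in each library, with C1 to C3 for siControl, U1 and U2 for siUsf2 1 and 2 (circles) and U3 for the library labelled siUsf2 3 (diamond). Bars are the mean and SD of C1 to C3 and of U1 and U2, each vertical axis starts at 0, and Heyl lies at 102 to 120 CPM in siControl and between 48.4 and 61.3 CPM in all 3 siUsf2 libraries.

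Heyl, a Hey-family repressor that responds to Notch, had the smallest p of the 10. Heyl (ENSMUSG00000032744, chromosome 4, 123233556 to 123249875, plus strand, GRCm38) held 119 CPM, 120 CPM and 102 CPM in siControl 1 to 3. It held 48.4 CPM and 61.3 CPM in siUsf2 1 and 2, and 51.5 CPM in the library labelled siUsf2 3 (95% Poisson interval 44.2 to 59.7). The groups did not overlap, and the library labelled siUsf2 3 lay between siUsf2 1 and 2. The level went from 114 ± 9.93 CPM (SD, n = 3) to 54.8 ± 9.13 CPM (SD, n = 2), which as a log2 fold change is -1.06 (SE 0.11; adjusted p = 4.44e-08 by edgeR). This is 47.8% of siControl (95% interval 41.0% to 55.7%). With all 6 libraries it was -1.11 (SE 0.13; adjusted p = 0.0694 by edgeR), which did not pass.

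Hes1, the repressor most often used as a readout of Notch activity, fell less. Hes1 (ENSMUSG00000022528, chromosome 16, 30064384 to 30067796, plus strand) held 46.0 CPM, 61.2 CPM and 41.9 CPM in siControl 1 to 3. It held 36.4 CPM and 34.7 CPM in siUsf2 1 and 2, below every siControl library, and 48.3 CPM (41.2 to 56.3) in the library labelled siUsf2 3, inside the siControl range. Hes1 thus had a log2 fold change of -0.50 (SE 0.13; adjusted p = 0.0138 by edgeR). Means were 49.7 ± 10.2 CPM (SD, n = 3) and 35.5 ± 1.18 CPM (SD, n = 2). This call rested on siControl 2, the highest of the 6 libraries: without it the log2 fold change was -0.32 (edgeR adjusted p = 0.104). Over all 6 libraries it was -0.36 (SE 0.19; adjusted p = 0.585 by edgeR).

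Hey1, a second Hey repressor, was the least abundant of the response genes. Hey1 (ENSMUSG00000040289, chromosome 3, 8663359 to 8667256, minus strand) held 19.7 CPM, 20.9 CPM and 17.8 CPM in siControl 1 to 3, and 13.1 CPM and 15.4 CPM in siUsf2 1 and 2. The library labelled siUsf2 3, with 56 counts, was at 16.4 CPM (12.4 to 21.3), so all 3 siUsf2 libraries lay below siControl although the counting interval of the last reaches into it. Hey1 had a log2 fold change of -0.46 (SE 0.15; adjusted p = 0.0423 by edgeR), just under the threshold. The call ended without siControl 1 (adjusted p = 0.130), siControl 2 (0.150), siUsf2 1 (0.417) or siUsf2 2 (0.0587), and with DESeq2 (0.0664), limma-voom (0.0519), library-size scaling (0.0518) and upper-quartile scaling (0.0608). In all 6 libraries it was -0.41 (SE 0.14; adjusted p = 0.375 by edgeR).

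Hes6 fell nearly as far as Heyl in siUsf2 1 and 2, and lay closer to siControl in the library labelled siUsf2 3. Hes6 (ENSMUSG00000067071, chromosome 1, 91411483 to 91414038, minus strand) held 99.0 CPM, 111 CPM and 84.3 CPM in siControl 1 to 3. It held 56.0 CPM and 45.3 CPM in siUsf2 1 and 2, below every siControl library, against 86.4 CPM (76.8 to 96.8) in the library labelled siUsf2 3, inside the siControl range. On the log2 scale Hes6 differed by -0.97 (SE 0.11; adjusted p = 9.88e-07 by edgeR). Its mean went from 98.2 ± 13.5 CPM (SD, n = 3) to 50.6 ± 7.60 CPM (SD, n = 2), or 51.2% of siControl (95% interval 43.5% to 60.2%). Adding the library labelled siUsf2 3 gave -0.69 (SE 0.24; adjusted p = 0.398 by edgeR).

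Dll1, the Delta-like ligand that muscle cells present to their neighbours, was the ligand that fell. Dll1 (ENSMUSG00000014773, chromosome 17, 15367354 to 15376872, minus strand) held 82.3 CPM, 85.3 CPM and 73.4 CPM in siControl 1 to 3. It held 49.0 CPM and 54.5 CPM in siUsf2 1 and 2, well below siControl, and 73.2 CPM (64.4 to 82.9) in the library labelled siUsf2 3, next to the lowest siControl value. For Dll1 the log2 fold change was -0.65 (SE 0.10; adjusted p = 3.31e-05 by edgeR). Mean levels were 80.3 ± 6.15 CPM (SD, n = 3) and 51.8 ± 3.90 CPM (SD, n = 2), the latter being 63.9% of siControl (95% interval 55.4% to 73.6%). The 6 libraries together gave -0.49 (SE 0.15; adjusted p = 0.345 by edgeR). Of its 4219 exon bases, 867 overlap exons of A930024N18Rik on the other strand, a gene whose identifier is absent from the deposited count table. The strand setting of the counting is not given, so reads from the shared bases cannot be told apart.

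The Jagged ligands did not pass. Jag1 (ENSMUSG00000027276, chromosome 2, 137081456 to 137116644, minus strand) was low, at 15.3 CPM, 17.2 CPM and 12.9 CPM in siControl and 16.6 CPM, 18 CPM and 15.5 CPM in siUsf2 1 to 3. These values overlap, and the log2 fold change was 0.18 (95% interval -0.13 to 0.50, edgeR adjusted p = 0.50). Jag2 (ENSMUSG00000002799, chromosome 12, 112907819 to 112929776, minus strand) held 74.8 CPM, 68.7 CPM and 61.3 CPM in siControl 1 to 3, and 62.0 CPM and 60.3 CPM in siUsf2 1 and 2. Jag2's log2 fold change was -0.17 (95% interval -0.38 to 0.03, edgeR adjusted p = 0.293). Jag2 stood at 114 CPM in the library labelled siUsf2 3 (103 to 126), above every other library, and with it the fold change over all 6 libraries turned to 0.16 (SE 0.26; adjusted p = 0.876 by edgeR).

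The 3 receptors, the membrane proteins that are cut to release the signal, did not pass in either comparison. Notch1 (ENSMUSG00000026923, chromosome 2, 26457903 to 26516663, minus strand) held 139 CPM, 114.1 CPM and 123 CPM in siControl 1 to 3 and 107 CPM, 113.6 CPM and 109 CPM in siUsf2 1 to 3. All 3 siUsf2 values lay below siControl, siUsf2 2 by a small margin. The log2 fold change of Notch1 was -0.20 (95% interval -0.39 to -0.01, not adjusted for the number of genes; edgeR adjusted p = 0.187).

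Notch2 (ENSMUSG00000027878, chromosome 3, 98013527 to 98150361, plus strand) held 418 CPM, 361 CPM and 403 CPM in siControl 1 to 3, and 459 CPM and 466 CPM in siUsf2 1 and 2. Both of the latter lay above siControl, while the library labelled siUsf2 3, at 384 CPM, lay inside its range. The log2 fold change of Notch2 was 0.22 (95% interval 0.04 to 0.39, not adjusted; edgeR adjusted p = 0.102), and without siControl 3 it passed (0.25, edgeR adjusted p = 0.0218).

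Notch3 (ENSMUSG00000038146, chromosome 17, 32120820 to 32166852, minus strand) held 477 CPM, 424 CPM and 426 CPM in siControl 1 to 3, and 505 CPM, 478 CPM and 550 CPM in siUsf2 1 to 3. Every siUsf2 value lay above siControl, siUsf2 2 by under 1 CPM. The log2 fold change of Notch3 was 0.14 (95% interval -0.04 to 0.32, edgeR adjusted p = 0.320). The 5-library intervals of all 3 receptors lie within a 1.5-fold change, and those of Heyl and Hes6 lie beyond it. The receptor genes also share exon bases with other gene models. Notch1 shares 1068 with 0610009E02Rik (at 0 to 11 counts a library) and 414 with Gm13568 (0 to 1 counts). Notch2 shares 541 with Gm42820 (2 to 56 counts) and Notch3 488 with Gm17276 (10 to 64 counts). How reads in those bases were assigned is not stated.

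**Figure D2:**
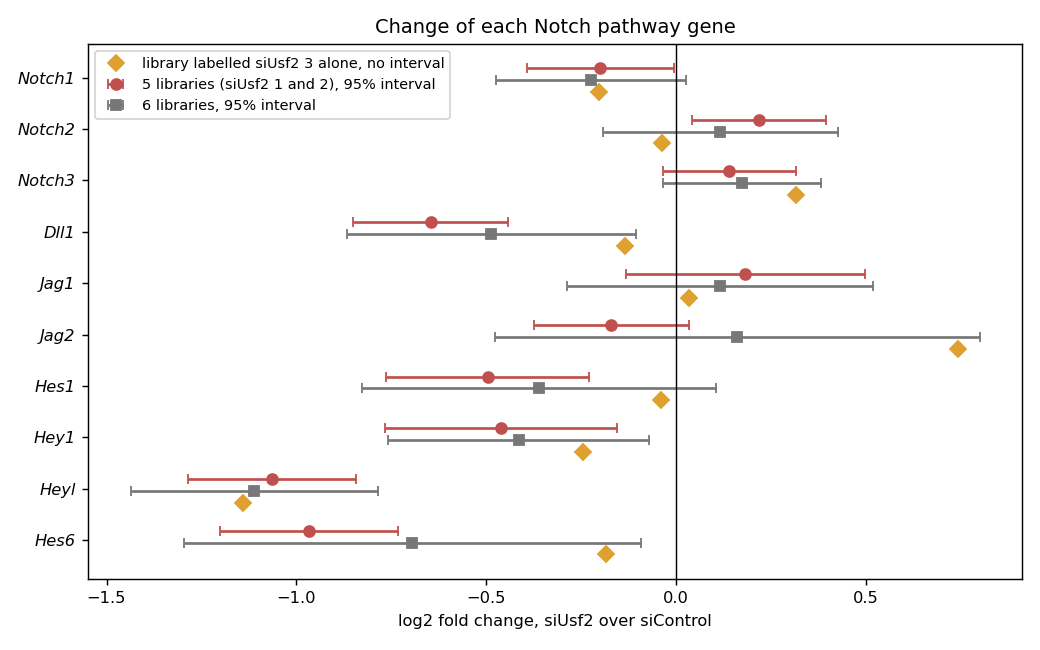
Log2 fold change of siUsf2 over siControl for each gene, with 95% intervals that are not adjusted for the number of genes, for the 5 libraries (red circles) and for all 6 (grey squares). Diamonds give the library labelled siUsf2 3 alone against the siControl mean, where Heyl is at -1.14, Hes6 at -0.18 and Jag2 at 0.74. The diamonds are ratios of CPM without TMM scaling, while circles and squares use TMM scaling.

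The library labelled siUsf2 3 followed siUsf2 1 and 2 for some of the 5 genes that fell and not for others. Against the siControl mean it was at -1.14 for Heyl, -0.25 for Hey1, -0.18 for Hes6, -0.13 for Dll1 and -0.04 for Hes1 on the log2 scale. These are ratios of CPM, without the TMM scaling used for the fold changes. With TMM scaling, centred on siControl, the values were -1.21, -0.32, -0.25, -0.21 and -0.10 in the same order. In CPM, of the 10 genes it lay below every siControl library for 4, above for 2 and inside the range for 4. Those counts say little about the Notch genes, since this library lay below siControl for 42.8% and above for 38.5% of all genes tested, and below for 63.7% of the genes that fell in the 5 libraries. Its ratio to siUsf2 1 and 2 also moved with gene structure. Over 4 equal groups of genes, ordered by exons per kilobase of the longest transcript, the median log2 ratio was -0.31, -0.23, -0.02 and 0.28. Jag2, with 26 exons, is in the highest group together with Jag1 and Notch3, at ratios of 0.89, -0.15 and 0.16. Heyl is in the lowest, at -0.09. Hes6 and Hey1 are in the second, at 0.76 and 0.19. Dll1, Hes1, Notch1 and Notch2 are in the third, at 0.49, 0.43, -0.02 and -0.27, so the genes did not all follow the medians. The part of this shift in the values of single genes was not tested.

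Levels of different genes were compared per length, as CPM per kilobase of merged exons. In siControl the order was Notch3 (54.7 ± 3.77), Hes6 (54.3 ± 7.44), Notch2 (36.5 ± 2.74), Hes1 (24.4 ± 5.00), Heyl (22.2 ± 1.94), Dll1 (19.0 ± 1.46), Jag2 (9.80 ± 0.973), Notch1 (8.83 ± 0.901), Hey1 (5.95 ± 0.477) and Jag1 (2.60 ± 0.371; SD, n = 3 each). The ranges of Notch3 and Hes6, of Hes1 and Heyl, of Heyl and Dll1, and of Jag2 and Notch1 overlapped, while the other neighbours did not. Merged exons join all annotated transcripts of a gene, and can be longer than the transcripts these cells make. The order and the overlaps hold for this length measure, and levels were not computed with another. Notch3 and Notch2 were thus the abundant receptors and Dll1 the most abundant ligand. In siUsf2 1 and 2, Hes6 (28.01 ± 4.20, SD, n = 2) stood below Notch2 (42.9 ± 0.426), and Heyl (10.7 ± 1.79) below Dll1 (12.3 ± 0.924), although the values of Heyl and Dll1 overlapped. In the library labelled siUsf2 3 Hes6, at 47.8, stood above Notch2 again, and Heyl, at 10.1, stood below Jag2.

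**Figure D3:**
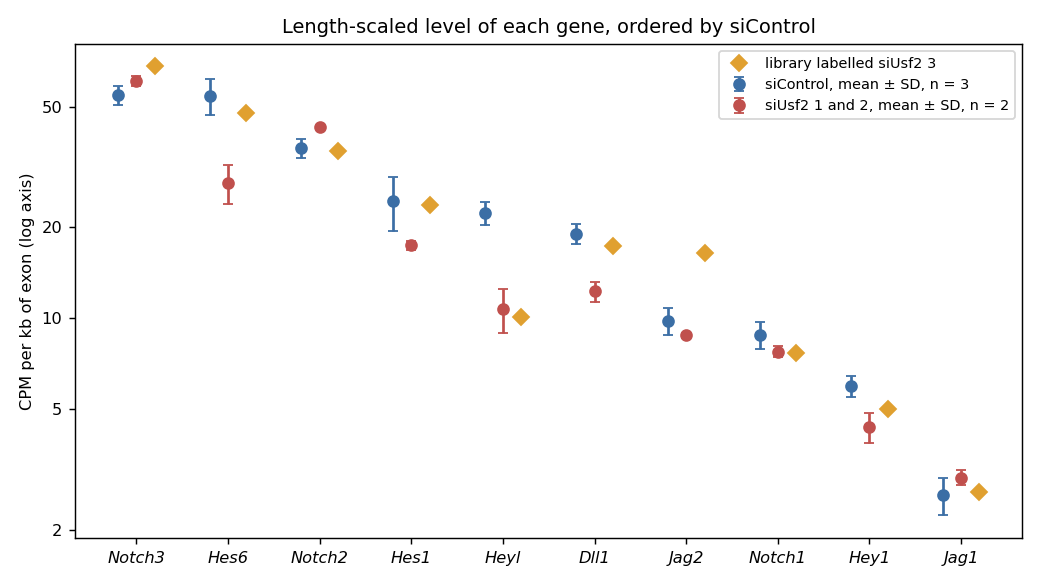
Length-scaled level of each gene on a log axis, in CPM per kilobase of exon, as mean and SD for siControl (n = 3, blue) and siUsf2 1 and 2 (n = 2, red), with the library labelled siUsf2 3 as a diamond. Notch3 and Hes6 share the top of the siControl order at 54.7 and 54.3, and Hes6 is at 28.01 in siUsf2 1 and 2.

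RefSeq promoter windows (GRCm38.p6) matched 7 of the 10 genes, and not Hes1, Hey1 and Heyl. Those of Dll1 and Hes6, genes that fell together, are shown as the 250 bases before each RefSeq start, 5′ to 3′ along the gene, both genes lying on the minus strand. Capitals mark each E-box, the letters CANNTG, which read the same on both strands and are the general site of basic helix-loop-helix factors. The Dll1 windows are chr17:15375824-15376073 and chr17:15376933-15377182, and those of Hes6 are chr1:91413223-91413472 and chr1:91414039-91414288.
Dll1, downstream start: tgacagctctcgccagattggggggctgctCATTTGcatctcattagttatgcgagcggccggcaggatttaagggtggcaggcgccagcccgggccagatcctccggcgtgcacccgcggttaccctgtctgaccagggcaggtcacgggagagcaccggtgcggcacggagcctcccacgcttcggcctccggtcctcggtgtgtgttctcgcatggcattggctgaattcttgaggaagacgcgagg
Dll1, upstream start: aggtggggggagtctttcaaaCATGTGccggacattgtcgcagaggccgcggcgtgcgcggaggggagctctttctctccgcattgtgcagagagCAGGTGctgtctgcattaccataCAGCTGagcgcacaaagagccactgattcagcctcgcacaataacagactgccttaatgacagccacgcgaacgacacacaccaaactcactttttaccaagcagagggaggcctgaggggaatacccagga
Hes6, downstream start: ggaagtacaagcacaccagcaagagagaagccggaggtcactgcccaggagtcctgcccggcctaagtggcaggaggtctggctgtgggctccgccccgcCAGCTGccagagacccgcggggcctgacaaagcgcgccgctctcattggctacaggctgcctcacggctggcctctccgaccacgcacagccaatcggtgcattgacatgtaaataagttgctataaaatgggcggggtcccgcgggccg
Hes6, upstream start: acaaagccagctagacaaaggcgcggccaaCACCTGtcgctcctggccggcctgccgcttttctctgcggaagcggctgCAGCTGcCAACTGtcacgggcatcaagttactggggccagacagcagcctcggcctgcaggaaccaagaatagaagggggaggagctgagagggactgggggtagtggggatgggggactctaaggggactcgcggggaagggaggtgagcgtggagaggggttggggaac
The Dll1 windows hold 1 and 3 E-boxes and those of Hes6 1 and 3. Each of the 5 matched genes that did not pass has only 1 window, so fewer bases were searched for each than for Dll1 or Hes6. Of these 5 genes, Jag1 holds 1 E-box, with the letters CAGCTG that also occur in windows of Dll1 and Hes6. Notch1, Notch2, Notch3 and Jag2 hold none. An E-box stands in 66.2% of 32851 promoter windows of this length. CACGTG, the E-box form that USF factors prefer and a subset of CANNTG, was found in none of the 9 windows of the 7 genes and in 6.02% of all windows. TGGGAA, the core of the RBPJ site, searched on both strands, was also found in none of the 9, and in 21.6% of all windows. A match is a description of the letters, and its absence speaks only for this window.

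The rest of the pathway was read from a list of 76 further genes in 7 roles. In the 5-library comparison 64 of them were tested, of which 2 rose, 3 fell and 59 did not pass, with a median log2 fold change of 0.00. These shares are near or below the 4.97% and 6.4% of all genes tested. With all 6 libraries none of 63 passed.

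Among the ubiquitin ligases and trafficking genes 3 of 17 tested fell. Dtx3l, a Deltex-family ubiquitin ligase that is also known as an interferon-induced gene, held 30.4 CPM, 31.3 CPM and 36.1 CPM in siControl and 15.7 CPM, 14.4 CPM and 12.6 CPM in siUsf2 1 to 3. Its 3 siUsf2 values lay below every siControl library, with a 5-library log2 difference of -1.13 (SE 0.13; adjusted p = 3.62e-07 by edgeR; 6 libraries 0.0694). Neurl1a, a Neuralized ligase that acts on ligands, was at -0.55 (SE 0.10; adjusted p = 2.18e-04 by edgeR) and Dtx4, another Deltex ligase, at -0.43 (SE 0.09; adjusted p = 0.00182 by edgeR). Mib1, the ligase that activates Notch ligands, was at -0.14 (edgeR adjusted p = 0.319) and is named here as a reference after its value was seen.

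In the nucleus, Rbpj, the DNA-binding partner of the cleaved receptor, rose. It held 89.8 CPM, 87.3 CPM and 94.7 CPM in siControl 1 to 3, and 114.1 CPM and 116 CPM in siUsf2 1 and 2, while the library labelled siUsf2 3, at 90.5 CPM, lay inside the siControl range. Rbpj's log2 fold change was 0.33 (SE 0.09; adjusted p = 0.0128 by edgeR; 6 libraries 0.664). It was 1 of 9 tested genes of the activator complex, the other 8 of which did not pass, as did all 15 corepressor genes. Other response genes and further Hes and Hey family genes formed 1 list, in which not every gene is a Notch response gene. None of its 3 tested genes passed (Nrarp, Bhlhe40 and Bhlhe41). Gxylt1, which extends sugars on the receptor's EGF repeats, rose by a log2 value of 0.30 (SE 0.09; adjusted p = 0.0290 by edgeR; 6 libraries 0.647), 1 of 8 glycosylation genes tested. None of the 10 genes of receptor cleavage, among them the proteases Adam10 and Adam17 and the gamma-secretase subunits, passed.

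**Figure D4:**
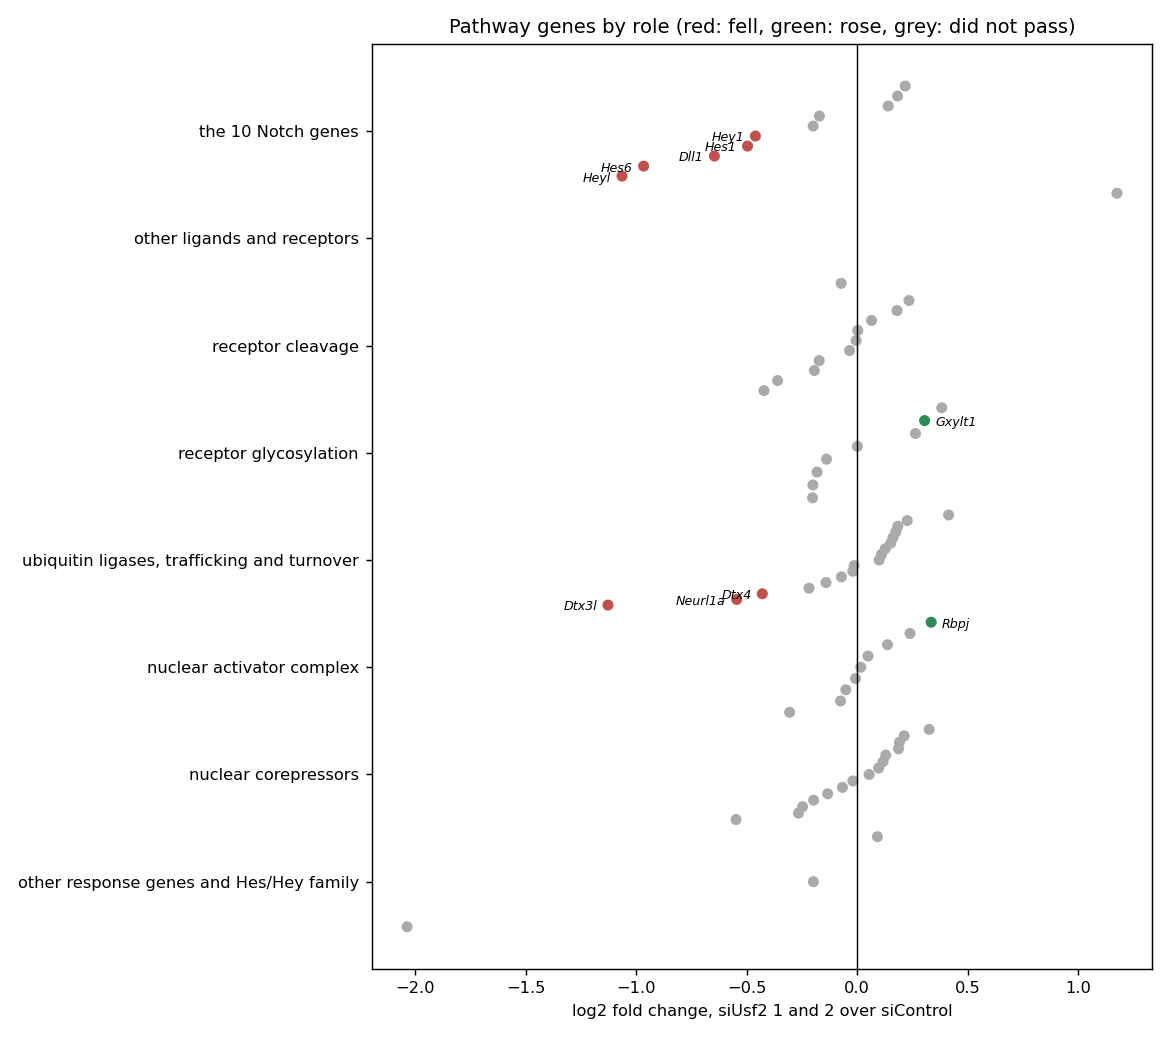
Log2 fold change of siUsf2 1 and 2 over siControl for each tested gene, 1 point per gene, grouped by role, with genes that fell in red, genes that rose in green and genes that did not pass in grey. Heights within a role only separate the points. The top row holds the 10 Notch genes, 5 of them red, and the 7 rows under it hold 3 red and 2 green points among 64.

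Genes of muscle differentiation were read in the same libraries. Myog, a transcription factor of terminal differentiation, went from 1037 ± 119 CPM (SD, n = 3) to 306 ± 33.8 CPM (SD, n = 2) in the 5 libraries, with 522 CPM in siUsf2 3. Mymk, the fusion protein myomaker, was at 228 ± 7.55, 43.8 ± 0.885 and 80.2 CPM in the same order, and Cdkn1a, the cell cycle inhibitor p21, at 714 ± 42.9, 328 ± 0.229 and 396 CPM. In CPM, the library labelled siUsf2 3 thus held these 3 genes between siControl and siUsf2 1 and 2. Dll1 (73.2 CPM) and Hey1 (16.4 CPM) also lay between the groups in that library. Their Poisson intervals there, 64.4 to 82.9 and 12.4 to 21.3 CPM, reach into the siControl range, so these counts do not place them below siControl. Hes1 and Hes6 lay inside the siControl range there, and Heyl at the level of siUsf2 1 and 2. With TMM scaling Hes6 lay just below that range. The part of the differentiation state in the Notch values was not tested.

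The genes of nearest pattern to Heyl were sought over the 6 libraries among 12106 protein-coding genes, by the root mean square difference of log2 CPM profiles centred on siControl. Nearest was Sox8, an SRY-box transcription factor, at a difference of 0.09, then Car3, a carbonic anhydrase of muscle, at 0.11, and Arpp21, a cAMP-regulated phosphoprotein, at 0.15. Sox8 held 42.3 CPM, 40.4 CPM and 30.8 CPM in siControl 1 to 3 and 16.9 CPM, 19.2 CPM and 16.1 CPM in siUsf2 1 to 3. Sox8 differed by -1.08 on the log2 scale in the 5 libraries (SE 0.14; adjusted p = 2.10e-06 by edgeR). It was picked for its likeness to Heyl in these same libraries, so this value is not a separate result. None of the 10 Notch genes rose, so no pattern was sought for a rising gene.

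**Figure D5:**
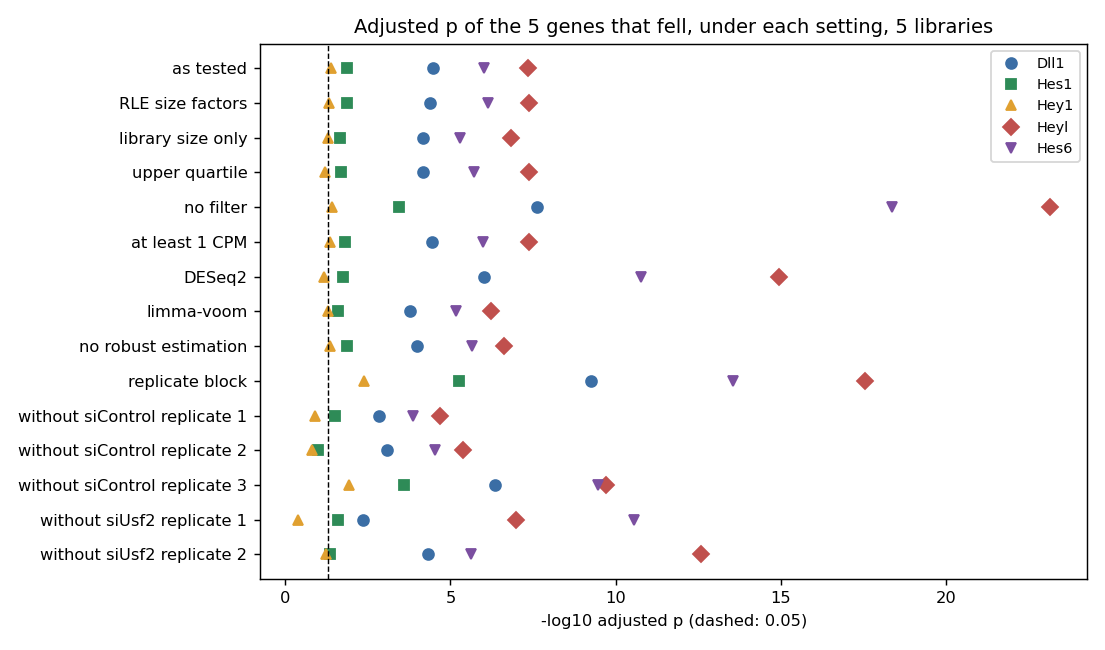
Adjusted p, as -log10, of the 5 genes that fell in the 5-library comparison, under the test as described and each other setting (rows), with the threshold of 0.05 as a dashed line. Dll1, Heyl and Hes6 stay to the right of the line in every row, Hes1 crosses it without siControl replicate 2, and Hey1 lies close to it in most rows.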

How the data were processed

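RNA sequencing counts of 6 C2C12 libraries were analysed, grouped by the sample titles. The deposited table holds raw read counts per Ensembl gene, not normalized. Per the submitters' processing notes, the build was mm10 and FastQC, Trimmomatic, HISAT2, featureCounts and DESeq2 were named; no label gives their versions, their roles, the strand setting or the annotation. The table named for TPM was not used here. Symbols, positions and exon lengths came from GENCODE M21 (GRCm38, the same assembly as mm10). No pseudogene transcript matched a transcript of the 10 genes (minimap2 2.31, at least 150 matching bases at 90% identity).

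Both comparisons used edgeR 4.0.16 in R 4.3.3 across all genes: filterByExpr, TMM, robust glmQLFit and two-sided glmQLFTest, Benjamini-Hochberg adjustment, called below 0.05. SE is the log2 fold change over the root of F. CPM divides counts by the library total. Single-library intervals are exact Poisson 95% intervals and cover counting error only, and are given for counts above 0. For a count of 0 the floor is 3 counts, which is 0.169 CPM in the deepest and 0.879 CPM in the shallowest library. Replicate pairs differed by more than counting noise (chi-square per degree of freedom 4.18 to 11.9, without siUsf2 3). Alternatives were other scalings, filters, DESeq2 1.42.0, limma-voom (limma 3.58.1), leaving out each library, a block for the replicate number and a threshold of 0.01. The 10 genes, the lists and the split of libraries were chosen with earlier results of these data known. Named genes were the 10, Usf2, Myog, Mymk and Cdkn1a, up to 4 called pathway genes in each direction by p, and the 3 nearest patterns to the called gene of smallest p.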

Additional observations from a re-analysis of the deposited data

How the results depend on the processing

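In the 5 libraries, Dll1, Heyl and Hes6 kept their direction and call in all 14 alternatives, Hes1 in 13 and Hey1 in 6. These 14 leave out the threshold of 0.01, at which Hes1 and Hey1 also lost their call. The number of the 10 genes called, 5, was 3 at an adjusted p below 0.01, and 3 to 6 with 1 library left out. The number of all genes called, 1957, was 938 at an adjusted p below 0.01 and 868 to 3560 with 1 library left out (1055 without siControl 1, 1144 without siControl 2, 3560 without siControl 3, 868 without siUsf2 1 and 1171 without siUsf2 2). Upper-quartile scaling gave 1124 higher and 900 lower genes, against 855 and 1102. With all 6 libraries 7 genes were called, against 4 with RLE size factors, 3 with library size only, 0 with upper-quartile scaling (1835 at an unadjusted p below 0.05), 116 without a filter, 4 at 1 CPM, 706 with DESeq2, 104 with limma-voom, 0 at an adjusted p below 0.01, and 0 to 1957 with 1 library left out. Of the 10 genes, 0 were called there, against 1 (Heyl) without a filter, with DESeq2 and with limma-voom, and 0 to 5 with 1 library left out, the 5 without the library labelled siUsf2 3. Jag2, at 0.16 in the 6 libraries, was at -0.17 to 0.31 with 1 library left out and reversed without the library labelled siUsf2 3. The cause of these differences was not tested.

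Deviations from the group means over all 6 libraries correlated at -0.07, 0.00 and -0.07 between siControl and siUsf2 libraries of numbers 1 to 3. Against siControl 1, siUsf2 1 and 2 gave nearly the same value (-0.074 and -0.071) and the library labelled siUsf2 3 the opposite (0.075). That library sets the siUsf2 deviations, so this check cannot tell whether the numbers pair the libraries. With the replicate block, 3989 genes were called in the 5 libraries (7 of the 10, with Jag2 lower and Notch2 higher added). In the 6 libraries 0 were called (0 of the 10), with 874 at an unadjusted p below 0.05 by edgeR. In the 5 libraries number 3 occurs only in siControl, so the block takes up siControl 3. That fit therefore compares siControl 1 and 2 with siUsf2 1 and 2, and is not a paired test of all 5.

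Where 1 siUsf2 library is left out of the 5, the remaining one is assumed to vary like siControl.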

Other observations

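Several Notch genes were at or near 0 in these cells. Of the 76 further pathway genes, 5 had no count in any library (Dlk1, Dtx1, Hes2, Hes5 and Helt), and Dll3 and Dll4, ligands known from the presomitic mesoderm and from endothelium, had 0 to 2 counts per library. Notch4 was at 0.51 to 1.01 CPM, and Hey2, the third Hey gene, had 3 to 6 counts per library. Nrarp, a feedback inhibitor that responds to Notch, was counted 13, 9 and 18 times in siControl 1 to 3. In siUsf2 1 to 3 it was counted 1, 5 and 0 times. The library labelled siUsf2 3 is the shallowest, and its floor for a count of 0 is 0.879 CPM. That floor lies above the siControl mean of Nrarp, 0.819 CPM, so the 0 does not show a fall. Nrarp's log2 fold change of -2.04 in the 5 libraries (95% interval -3.66 to -0.41, edgeR adjusted p = 0.0959) did not pass.

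Some pathway genes differed chiefly in the library labelled siUsf2 3 and were chosen after their values were seen. Psenen, a gamma-secretase subunit, was at 0.60 to 1.08 CPM in the other 5 libraries and at 30.5 CPM there. Hdac1, a histone deacetylase, was at 7.0 to 11.2 CPM and at 57.4 CPM there, and Snw1, a cofactor of RBPJ, at 26.3 to 32.0 CPM and at 96.9 CPM there. In the 5 libraries none of these 3 passed (edgeR adjusted p of 0.766, 0.768 and 0.980). That library also held 0.974% of its counts on pseudogenes, against 14.0% to 15.3%, and the part of this in the 3 genes was not tested.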
